A study of Mus musculus with 11 samples.

Results

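A set of 37 genes of glycolysis and of the response to low oxygen, listed by symbol, was followed in skin fibroblasts from unwounded back skin (normal skin, NS) and from 5-day excisional wounds (5dw). The 37 genes are all among the 47643 gene symbols measured, and 35 of them were expressed highly enough to be tested, out of 11979 tested genes. The study asked how activin, a growth factor of the TGF-beta family, alters wound fibroblasts. Wild-type (WT) mice were compared with littermates (Act) that carry a transgene in which the keratin 14 promoter drives INHBA, the activin A subunit, so the transgene is driven in keratinocytes and the sorted cells give no check of it. All mice were 9 to 12 weeks old and of a mixed background, 50% CD-1 and 50% C57Bl/6, and the labels name no further allele or agent in any of the 4 groups. The cells were live, carried CD140a (the product of Pdgfra) and lacked CD45, CD3, CD11b and F4/80, markers of leukocytes. There were 3 libraries each of WT NS, Act NS and WT 5dw, and 2 of Act 5dw, numbered 1 and 3 because the authors had left out library 2. RNA of 3 animals was pooled for every library, with an input of 200 ng in 5dw and 100 ng in NS, so input differed with wounding and cannot be told apart from it. Values are RPKM, reads scaled to gene length and to the mapped total of the library. The mapped reads recovered from the values were 18649321 to 29718956 per NS library, 38740404 to 39702138 in WT 5dw, and they numbered 20531292 and 25626301 in Act 5dw. The authors report about the same number of reads for every sample they kept. The higher recovered numbers of WT 5dw differ from that, and the reason was not tested.

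Glycolysis splits glucose into pyruvate in the cytosol and yields ATP without oxygen, and lactate dehydrogenase turns pyruvate into lactate, which leaves the cell with a proton through monocarboxylate transporters. When oxygen is low, the alpha subunits HIF-1alpha (Hif1a) and HIF-2alpha (Epas1) escape prolyl hydroxylation by EGLN enzymes, pair with ARNT and bind short DNA elements around the core ACGTG or GCGTG near genes for glucose uptake, glycolysis, pH control, mitophagy and vessel growth. HIF alpha is controlled mainly at the level of the protein, which was not measured here. Healing wounds are known for disrupted vessels, low oxygen and high lactate.

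The upstream sequences of a few genes, picked with their values known, are shown first, and the same short element was searched in all promoters of the set. These few do not stand for the set. Eno1, Pfkl, Tpi1 and Pdk1 lack ACGTG and were higher in 5dw in both genotypes. Egln1, Egln3 and Pfkm hold it and passed in neither genotype, and Ldha, which is shown, passed in WT only. RefSeq start sites on GRCm38.p6 gave 48 promoters, each from 250 bases before to 50 bases after a start, for 33 of the 37 genes, and Epas1, Bnip3l, Ndufa4l2 and Ndrg1 had no entry. In the lines that follow, capitals mark ACGTG on either strand (read as CACGT on the other strand, or as the palindrome CACGTG where both overlap). The first is the lactate exporter gene Slc16a3 (chr11:120948817-120949116, plus strand), the second the glycolytic enzyme gene Pgk1 (chrX:106186850-106187149, plus strand), the third Ldha (chr7:46845554-46845853, plus strand), the fourth its partner Ldhb (chr6:142507908-142508207, minus strand) and the last Adm (chr7:110627407-110627706, plus strand).
Slc16a3: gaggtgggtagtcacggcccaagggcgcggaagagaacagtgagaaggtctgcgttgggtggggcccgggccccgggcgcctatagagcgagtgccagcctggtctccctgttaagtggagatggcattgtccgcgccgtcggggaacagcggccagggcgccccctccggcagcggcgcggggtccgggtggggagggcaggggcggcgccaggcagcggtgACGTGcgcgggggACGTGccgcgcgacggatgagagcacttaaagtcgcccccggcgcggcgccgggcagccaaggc
Pgk1: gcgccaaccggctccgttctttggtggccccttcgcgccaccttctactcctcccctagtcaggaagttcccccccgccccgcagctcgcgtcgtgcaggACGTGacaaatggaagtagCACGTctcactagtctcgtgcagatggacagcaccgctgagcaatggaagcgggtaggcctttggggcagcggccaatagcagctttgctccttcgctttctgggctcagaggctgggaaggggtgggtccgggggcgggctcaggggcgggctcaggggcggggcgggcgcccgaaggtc
Ldha: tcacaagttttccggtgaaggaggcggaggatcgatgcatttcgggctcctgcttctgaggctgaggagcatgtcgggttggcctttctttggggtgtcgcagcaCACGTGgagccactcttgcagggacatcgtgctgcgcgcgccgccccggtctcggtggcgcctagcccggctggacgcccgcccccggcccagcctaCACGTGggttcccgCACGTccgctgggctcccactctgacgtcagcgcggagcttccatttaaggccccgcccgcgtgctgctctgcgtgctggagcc
Ldhb: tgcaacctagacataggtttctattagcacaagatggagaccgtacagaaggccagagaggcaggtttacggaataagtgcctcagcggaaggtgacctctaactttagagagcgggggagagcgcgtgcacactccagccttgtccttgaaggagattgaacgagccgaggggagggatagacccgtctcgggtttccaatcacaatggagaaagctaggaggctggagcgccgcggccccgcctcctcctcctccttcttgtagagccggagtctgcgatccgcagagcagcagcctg
Adm: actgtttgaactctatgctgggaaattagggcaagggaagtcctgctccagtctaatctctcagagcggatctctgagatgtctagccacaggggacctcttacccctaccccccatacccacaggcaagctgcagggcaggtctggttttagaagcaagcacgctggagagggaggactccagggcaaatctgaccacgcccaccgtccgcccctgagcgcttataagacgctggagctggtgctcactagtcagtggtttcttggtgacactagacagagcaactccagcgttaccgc
The Slc16a3 promoter holds ACGTG at -27 and -14 from the start site, that of Pgk1 at -150 and -131, and that of Ldha at -145, -48 and -34, while the windows of Ldhb and Adm hold no ACGTG. Ldha has a second RefSeq promoter (chr7:46846832-46847131), which holds no ACGTG either and is not shown. The other core, GCGTG, occurs in the windows of Ldhb, Adm and Ldha and not in those of Slc16a3 and Pgk1. At least 1 ACGTG was found in 25 of the 48 promoters (52.1%), against 19.6% of all 32851 RefSeq promoters of the same length. The set was listed in part as HIF targets, so an excess of a HIF core is partly built into it. Overlapping windows of Aldoa also count the same site, at -126 and -202 from their start sites. Among promoters with at least 15 CG pairs the shares were 20 of 33 (60.6%) and 28.4%. The sister core GCGTG was in 56.3% of the members' promoters and 32.4% of all, but in 57.6% and 60.6% of those with at least 15 CG pairs. The palindrome CACGTG was in 12.5% and 7.15%, and in 15.2% and 11.3% of those with at least 15 CG pairs. By gene, 22 of 33 had ACGTG in at least 1 promoter, and 20 of these were tested. Of those 20, 11 were higher and none lower in 5dw in both genotypes by the test described next, and of the 11 genes without ACGTG 4 were higher and 5 lower. Over all tested genes 7.4% were higher in both and 34.1% lower in both. GCGTG divided the genes the other way. It was in 22 of 33 genes too, and of the 20 tested 9 were higher and 5 lower in both genotypes, while of the 11 without GCGTG 6 were higher and none lower. With either core counted, 14 of 28 tested genes were higher and 5 lower, so each of the 5 lower genes had a core in at least 1 promoter. After the median-ratio scaling described next, 15 genes with ACGTG were higher and none lower, and 5 without it were higher and 2 lower, while 12 with GCGTG were higher and 2 lower, and 8 without it were higher and none lower (17.3% and 17.0% of all tested genes). The 11 higher genes with ACGTG and the 6 without GCGTG both include Car9, which could be tested only if it was higher. These splits were made with the calls known and are descriptions with no test.

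The comparison of 5dw with NS was fitted in each genotype by limma-trend on log2(RPKM + 0.5), and differentially expressed genes (DEGs) have a Benjamini-Hochberg adjusted p under 0.05. In WT mice, 18 of the 35 tested genes were higher in 5dw, 7 were lower and 10 did not pass. Of all tested genes, 9.45% were higher and 48.8% lower. In Act mice 18 genes were higher, 5 were lower and 12 did not pass, against 9.04% and 36.5% of all tested genes. The median log2FC of the 35 genes was 0.65 in WT and 0.70 in Act, while the median over all tested genes was -0.40 and -0.31. Both comparisons have libraries of their own, and 17 genes were higher in both (7.4% of all tested genes) and 5 lower in both (34.1%). Values of the 6 NS and 5 5dw libraries did not overlap for 18 genes that were higher (8.45% of tested genes) and for 5 that were lower (38.9%), namely Pfkp, Ldhb, Pfkfb4, Adm and Kdm3a.

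The negative median over all genes depends on the scale, and so do the counts of the members. After median-ratio scaling, which sets that median to 0, 23 genes were higher and 4 lower in WT (22.4% and 22.2% of all tested genes), and 22 and 3 in Act (19.9% and 20.8%). On this scale 22 genes were higher in both genotypes (17.3%) and 2 lower in both (17.0%). After quantile normalization 23 were higher and 5 lower in WT (20.4% and 19.4%), and 20 and 3 in Act (20.1% and 17.2%). The Act counts rest on 2 Act 5dw libraries, and leaving out either leaves 1 in that group. Over all fits without 1 library, the Act log2FC of Pkm ranged from 0.72 to 1.56 and that of Slc16a3 from 1.86 to 3.49. Without WT 5dw replicate 3, the WT 5dw library with the most keratinocyte RNA, 16 genes were higher and 6 lower in WT. The share of all tested genes called in that fit is not given, so its counts cannot be read as particular to the set. Car9 entered the tested genes only through 2 5dw libraries, all 6 NS libraries being below 1 RPKM, so it had to be higher in 5dw to be tested. Without Car9, 17 of 34 tested genes were higher in each genotype, 16 were higher in both, 17 were higher without overlap, and the median log2FC was 0.63 in WT and 0.67 in Act. Without a filter on low values (26465 genes) its adjusted p was 0.0998 in WT and 0.0490 in Act.

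**Figure D1:**
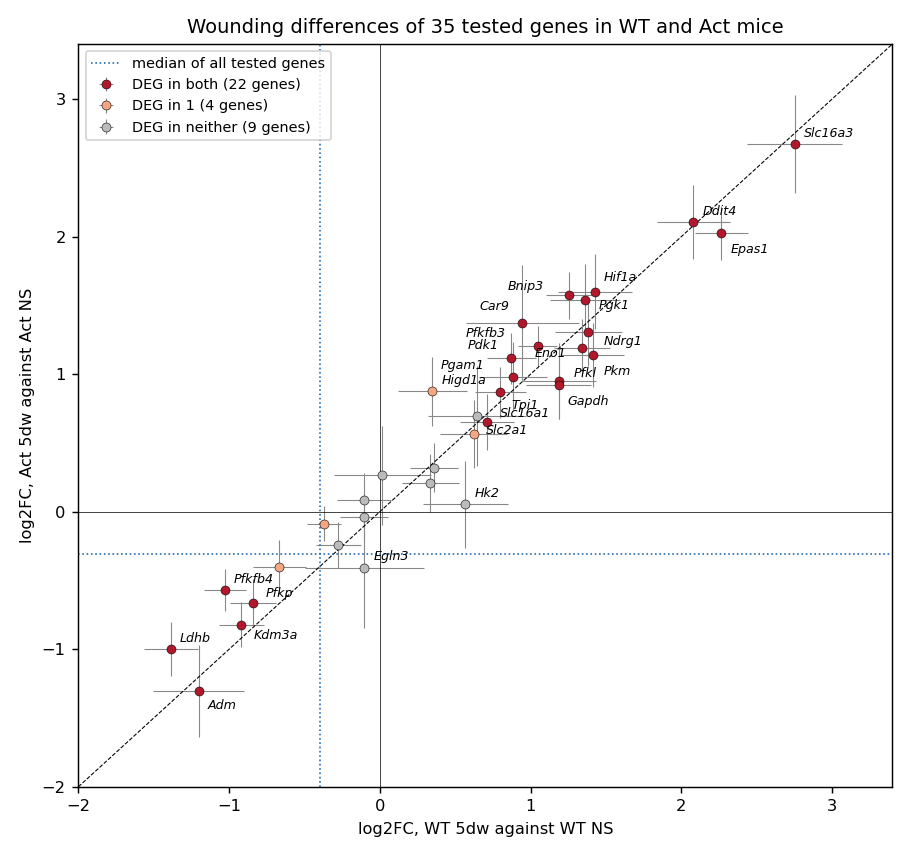
Log2FC of 5dw against NS in WT mice (x axis) and Act mice (y axis) for the 35 tested genes, with points for genes, bars for the standard error of the fit, dotted lines at the median of all tested genes (-0.40 and -0.31) and a dashed line where both are equal. Dark red marks 22 genes that passed in both genotypes, 17 above 0 and 5 below; after median-ratio scaling 22 genes were higher in both and 2 lower in both.

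The glycolytic enzymes did not all move the same way. Of 14 tested enzymes, 7 were higher and 2 lower in WT (9.45% and 48.8% of all tested genes), and 7 higher and 1 lower in Act (9.04% and 36.5%). After median-ratio scaling the counts were 10 and 1 in WT (22.4% and 22.2%) and 9 and 0 in Act (19.9% and 20.8%). Summed over all 15 enzymes, the RNA was 381 to 524 RPKM in the 6 NS libraries and 641 to 979 in the 5 5dw libraries, and its percent of all RPKM in a library was 0.159 to 0.192 in NS and 0.266 to 0.396 in 5dw. No 5dw library overlapped the NS range on either scale.

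**Figure D2:**
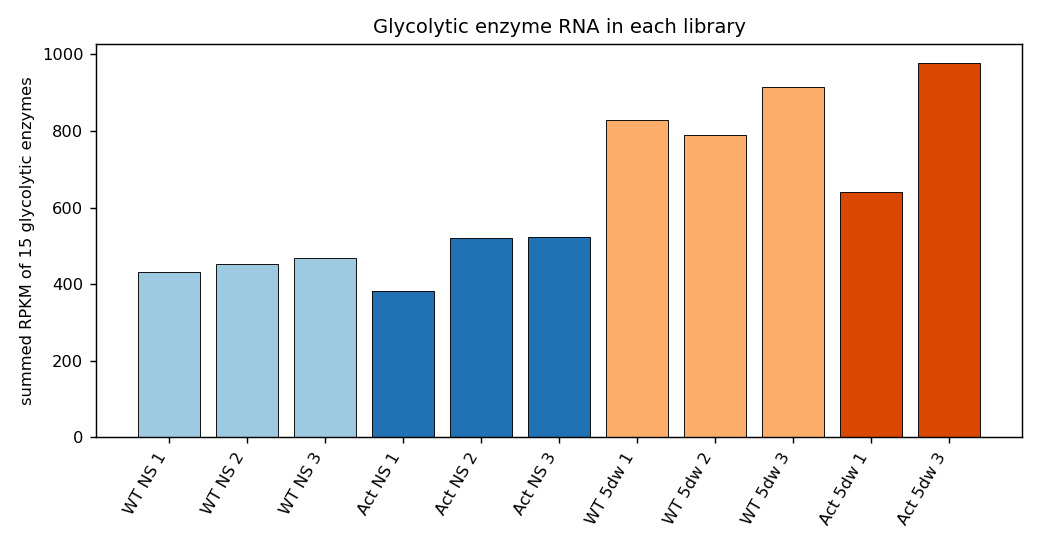
Summed RPKM of the 15 glycolytic enzymes in each of the 11 libraries, 1 bar per library and no error bars. The 6 NS bars run from 381 to 524 and the 5 5dw bars from 641 to 979, with the lowest and the highest 5dw bar both from Act mice.

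The 3 enzymes with the largest log2FC were Pkm, Eno1 and Pgk1 in both genotypes, all of the second stretch of the pathway. Pfkl, of the first stretch, came next in WT. Pgk1, phosphoglycerate kinase, which makes the first ATP, read 27.5, 37.2 and 38.3 RPKM in WT NS, 22.4, 33.3 and 39.3 in Act NS, 87, 77.8 and 100.3 in WT 5dw, with 72.7 and 113 in Act 5dw. Every 5dw library was above every NS library, and the log2FC was 1.36 ± 0.23 in WT (adjusted p = 7.11e-04) and 1.54 ± 0.26 in Act (adjusted p = 9.89e-04). Pkm, pyruvate kinase, which makes the last, had the highest level of the 37 genes and ranked 262nd of the tested genes by mean RPKM. Its values were 94.6, 79.5 and 95.8 RPKM in WT NS, 86.3, 94.5 and 109.6 in Act NS, 248, 206 and 269 in WT 5dw, with 159 and 285 in Act 5dw. The groups did not overlap, and the log2FC was 1.41 ± 0.21 in WT (adjusted p = 2.87e-04) and 1.14 ± 0.23 in Act (adjusted p = 0.00276). Pkm made up 17.6% to 22.7% of the summed enzyme RPKM in NS and 24.8% to 29.9% in 5dw.

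Eno1, enolase 1, stood at 15, 15.4 and 16.4 RPKM in WT NS, 12.6, 16.4 and 18.4 in Act NS, 42.6, 36.5 and 45.7 in WT 5dw, with 28.4 and 54.5 in Act 5dw. All 5dw values were above the NS values, with a log2FC of 1.38 ± 0.22 in WT (adjusted p = 4.52e-04) and 1.31 ± 0.25 in Act (adjusted p = 0.00175). Of the 31-base sequences of Eno1, 27.7% also occur in Eno1b, a copy of the gene, so reads of the pair could not be fully told apart, and Eno1b itself read 12.9 to 22.4 RPKM in NS and 36.8 to 56.1 in 5dw. Gapdh, glyceraldehyde-3-phosphate dehydrogenase and a common reference gene, gave 27.3, 26.1 and 28.5 RPKM in WT NS, 22.2, 24.5 and 28.8 in Act NS, 64.5, 55.1 and 69.4 in WT 5dw, with 33.6 and 67.5 in Act 5dw. The lowest 5dw value, from Act replicate 1, was only a little above the highest NS value, and the log2FC was 1.19 ± 0.22 in WT (adjusted p = 0.00108) and 0.92 ± 0.24 in Act (adjusted p = 0.0107). Without Act 5dw replicate 3 the Act value fell to 0.42 (adjusted p = 0.132).

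Tpi1, triosephosphate isomerase, was at 35.7 to 47.3 RPKM in NS and 65.1 to 95.2 in 5dw, and Pgam1, phosphoglycerate mutase, at 32.9 to 64.7 RPKM in NS and 71.9 to 110.3 in 5dw. Neither overlapped between the tissues, and both were DEGs in both genotypes, with log2FCs of 0.80 and 0.87 for Tpi1 and 0.88 and 0.98 for Pgam1 in WT and Act. Their Act calls rested on Act 5dw replicate 3, and without it the adjusted p was 0.053 for Tpi1 and 0.114 for Pgam1. Other annotated genes share 54.7% of the 31-base sequences of Pgk1, 37.1% of Pgam1, 34.7% of Pkm, 28.1% of Gapdh and 10.5% of Tpi1. The gene that shares most with each of these 5 stayed below 1 RPKM in every library.

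Phosphofructokinase, the committed step of glycolysis, showed its isozymes moving apart. Pfkl, the liver-type subunit, read 3.58, 2.50 and 4.49 RPKM in WT NS, 3.52, 3.94 and 4.69 in Act NS, 8.63, 7.31 and 9.61 in WT 5dw, with 5.82 and 11.6 in Act 5dw. The tissues did not overlap, and the log2FC was 1.19 ± 0.24 in WT (adjusted p = 0.00203) and 0.95 ± 0.27 in Act (adjusted p = 0.0159), the Act value falling to 0.48 (adjusted p = 0.206) without Act 5dw replicate 3. Pfkp, the platelet-type subunit, was at 7.0 to 10.6 RPKM in NS and 4.68 to 5.92 in 5dw and was lower without overlap, with a log2FC of -0.84 ± 0.15 in WT (adjusted p = 9.89e-04) and -0.66 ± 0.17 in Act (adjusted p = 0.00922). On the median-ratio scale the difference of Pfkp was -0.42 (adjusted p = 0.0141) in WT and -0.33 (adjusted p = 0.0638) in Act, and its Act call was lost without Act 5dw replicate 1 (adjusted p = 0.074). Pfkm, the muscle-type subunit, lay at 5.78 to 8.92 RPKM in NS and 6.01 to 7.54 in 5dw and passed in neither genotype.

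The first steps and the aldolase step had smaller log2FCs. Hk2, the inducible hexokinase and the second most abundant of the 37 RNAs, ranged over 55 to 130.1 RPKM in NS and 78 to 125 in 5dw, with a log2FC of 0.57 ± 0.28 in WT (adjusted p = 0.106) and 0.05 ± 0.32 in Act (adjusted p = 0.909). It passed in WT with the replicate number as a block (adjusted p = 0.013) and after median-ratio scaling (1.02, adjusted p = 0.0124). Hk1, the housekeeping hexokinase, was at 6.09 to 8.79 RPKM in NS and 4.26 to 6.74 in 5dw, and its log2FC was -0.67 ± 0.18 in WT (adjusted p = 0.00790) and -0.40 ± 0.20 in Act (adjusted p = 0.118), a call that was lost after median-ratio scaling (-0.25, adjusted p = 0.218). Gpi1, glucose-6-phosphate isomerase, had log2FCs of 0.36 and 0.32 and Aldoa, aldolase A, of 0.34 and 0.21. Neither Gpi1 nor Aldoa passed on the RPKM scale, and both passed in both genotypes after median-ratio scaling, with 0.81 and 0.67 for Gpi1 and 0.79 and 0.57 for Aldoa. Eno2, the neuronal enolase, was at 4.67 to 6.98 RPKM in NS and 4.07 to 5.18 in 5dw and did not pass. Aldoc, the brain-type aldolase, reached 1 RPKM in 1 NS library only and was not tested. The annotation lists Aldoa under 2 adjacent genes of chromosome 7, which the values do not separate.

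**Figure D3:**
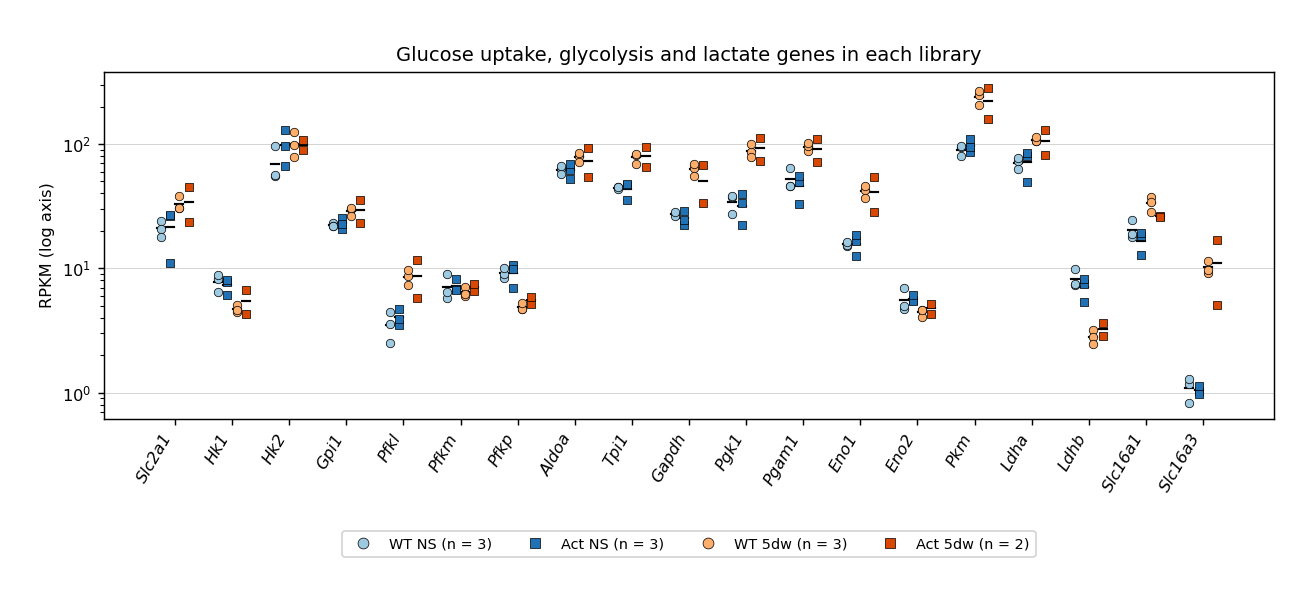
RPKM (log axis) of 19 genes of glucose uptake, glycolysis and lactate handling, in pathway order, with 1 point per library (3 WT NS, 3 Act NS, 3 WT 5dw, 2 Act 5dw) and a black line at each group mean. The 5dw points of Pgk1, Eno1, Pkm and Slc16a3 lie above all NS points, and those of Pfkp and Ldhb lie below them.

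Lactate production and export held the largest single difference of the set. Slc16a3 encodes MCT4, the low-affinity transporter known for exporting lactate from glycolytic cells. It read 1.16, 0.827 and 1.28 RPKM in WT NS, 1.03, 0.968 and 1.13 in Act NS, 9.22, 9.75 and 11.5 in WT 5dw, with 5.07 and 16.8 in Act 5dw. The lowest 5dw value was far above the highest NS value, the mean of 5dw was 9.84 times that of NS, and the log2FC was 2.75 ± 0.32 in WT (adjusted p = 6.34e-05) and 2.67 ± 0.35 in Act (adjusted p = 2.24e-04). The 2 Act 5dw libraries were far apart, and the WT 5dw libraries lay between them. Bsg, which encodes the partner protein that carries these transporters to the membrane, was also a DEG in both genotypes, with log2FCs of 0.65 and 0.63.

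Slc16a1, which encodes the broadly expressed transporter MCT1, was at 12.7 to 24.3 RPKM in NS and 25.9 to 37.7 in 5dw without overlap, with a log2FC of 0.71 ± 0.18 in WT (adjusted p = 0.00660) and 0.65 ± 0.20 in Act (adjusted p = 0.0225). Its Act call was lost when either Act 5dw library was left out (adjusted p = 0.095 and 0.092). Slc16a7, the high-affinity MCT2, was low throughout and lower still in 5dw, from 1.29 to 2.12 RPKM in NS to 0.0903 to 0.213, with log2FCs of -1.95 and -1.58. Slc2a12, an insulin-independent glucose transporter, was also lower, at -1.21 and -0.96. Slc16a7 and Slc2a12 reached 1 RPKM in NS libraries only, so they had to be lower in 5dw to be tested.

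Ldhb, the lactate dehydrogenase subunit that favours pyruvate formation, read 7.30, 7.48 and 9.88 RPKM in WT NS, 5.35, 7.51 and 8.21 in Act NS, 3.18, 2.81 and 2.48 in WT 5dw, with 3.63 and 2.83 in Act 5dw. The tissues did not overlap, and the log2FC was -1.38 ± 0.18 in WT (adjusted p = 1.19e-04) and -1.0 ± 0.20 in Act (adjusted p = 0.00230), remaining below 0 after median-ratio scaling (-0.97 and -0.68). Ldha, the subunit that favours lactate formation, was at 49.3 to 85 RPKM in NS and 81.1 to 130.2 in 5dw and differed by 0.62 ± 0.22 in WT (adjusted p = 0.0322) and 0.56 ± 0.25 in Act (adjusted p = 0.0847). Its lowest 5dw library, Act replicate 1, fell among the NS libraries. The Act difference of Ldha passed with the replicate block (adjusted p = 0.023) and after median-ratio scaling (0.92, adjusted p = 0.00655), and the WT call was lost when any 1 WT library was left out (adjusted p from 0.051 to 0.094).

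Slc2a1, which encodes the basal glucose transporter GLUT1, was at 11 to 27 RPKM in NS and 23.6 to 44.7 in 5dw. Its log2FC was 0.65 ± 0.32 in WT (adjusted p = 0.108) and 0.70 ± 0.36 in Act (adjusted p = 0.138), and on the median-ratio scale it passed at 1.09 and 1.05. Pdk1, pyruvate dehydrogenase kinase 1, which inhibits pyruvate dehydrogenase, was at 1.07 to 1.94 RPKM in NS and 3.30 to 4.40 in 5dw without overlap, with a log2FC of 0.87 ± 0.16 in WT (adjusted p = 0.00124) and 1.12 ± 0.18 in Act (adjusted p = 8.60e-04).

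The enzymes that set fructose-2,6-bisphosphate, the main activator of phosphofructokinase, went opposite ways. Pfkfb3, whose kinase activity dominates, read 3.35, 3.13 and 2.81 RPKM in WT NS, 2.65, 3.57 and 3.49 in Act NS, 6.54, 6.74 and 7.52 in WT 5dw, with 8.60 and 7.58 in Act 5dw. The tissues did not overlap, and the log2FC was 1.05 ± 0.13 in WT (adjusted p = 9.76e-05) and 1.21 ± 0.14 in Act (adjusted p = 1.21e-04). Pfkfb4, often listed as a second hypoxia-inducible form, was at 3.04 to 5.04 RPKM in NS and 1.77 to 2.10 in 5dw and was lower without overlap, with a log2FC of -1.03 ± 0.14 in WT (adjusted p = 1.55e-04) and -0.57 ± 0.15 in Act (adjusted p = 0.0110). Its Act call was lost after median-ratio scaling (-0.27, adjusted p = 0.109) and without Act 5dw replicate 1 (adjusted p = 0.064). Pfkfb2, the heart form, from a further list, had log2FCs of -0.74 and -0.66, but it reached 1 RPKM in NS libraries only and so had to be lower to be tested.

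The shift between related genes was tested within each library, where a common scaling factor nearly cancels except for genes near the added 0.5 RPKM, such as Aldoc and, in NS, Slc16a3. For 11 pairs, the log2 ratio of RPKM + 0.5 was compared between 5dw and NS by an exact two-sided permutation test that moved tissue labels within each genotype, with 200 arrangements, a smallest possible p of 0.005 and Benjamini-Hochberg adjustment over the 11 pairs. In 8 pairs the 5dw and NS ratios did not overlap in either genotype and the test gave this smallest p, with an adjusted p of 0.00688. For Pfkl with Pfkp and for Pfkfb3 with Pfkfb4 this result was fixed in advance. Each of these genes alone did not overlap between tissues, and the genes of each pair went opposite ways. Their ratio p-values add nothing to the fits of the single genes. The Ldha to Ldhb ratio rose by 1.81 on the log2 scale, so that Ldhb made up 8.63% to 11.4% of the pair in NS and 2.13% to 4.28% in 5dw. The Slc16a1 to Slc16a3 ratio decreased by 2.01, and Slc16a3 went from 3.29% to 7.51% of the pair in NS to 16.2% to 39.4% in 5dw.

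Among the enzyme pairs, Pfkl rose by 1.84 against Pfkp and by 1.16 against Pfkm, Eno1 by 1.62 against Eno2, Pfkfb3 by 1.92 against Pfkfb4, Aldoa by 0.87 against Aldoc and Bnip3 by 1.63 against Bnip3l. The ratios of all 5 5dw libraries were above those of all 6 NS libraries, except that of Aldoa to the barely expressed Aldoc, whose log2 ratios were 5.54 to 6.46 in NS and 6.40 to 7.20 in 5dw. After median-ratio scaling the Aldoa to Aldoc difference was 1.12 and that of Slc16a1 to Slc16a3 was -1.94, both still with an adjusted p of 0.00688 in the exact permutation test. With a pseudocount of 0.1 they were 1.44 and -2.37, and with 1 they were 0.65 and -1.69. Pfkp fell from 66.6% to 78.4% of the Pfkl and Pfkp pair in NS to 33.8% to 46.9% in 5dw. The Hk1 to Hk2 ratio decreased by 0.86 (exact permutation p = 0.035, adjusted p = 0.0385) and the Hif1a to Epas1 ratio by 0.68 (exact permutation p = 0.03, adjusted p = 0.0367), both with overlapping ranges. The first kept its call only when the library left out was WT NS replicate 2, Act NS replicate 2 or Act 5dw replicate 3, with an adjusted p up to 0.096 for the others. The second lost its call without Act NS replicate 2 or 3 (adjusted p = 0.055) or WT 5dw replicate 1 or 3 (adjusted p = 0.066). The Egln1 to Egln3 ratio differed by 0.25, less than the spread between libraries (exact permutation p = 0.355).

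**Figure D4:**
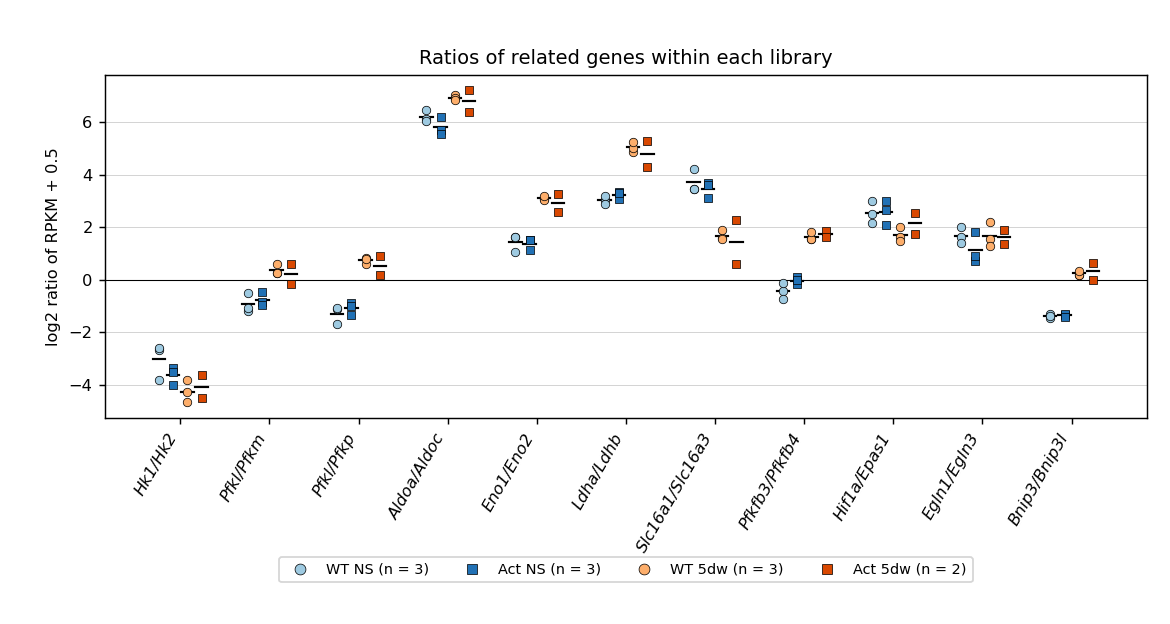
Log2 ratios of RPKM + 0.5 for 11 pairs of related genes in each library, 1 point per library and a black line at each group mean. The Ldha to Ldhb, Pfkl to Pfkp, Pfkfb3 to Pfkfb4 and Bnip3 to Bnip3l ratios of all 5 5dw libraries lie above those of all 6 NS libraries, and the Slc16a1 to Slc16a3 ratios lie below them.

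Both HIF alpha subunits were higher in 5dw, and the prolyl hydroxylases Egln1 and Egln3 did not pass. Epas1, which encodes HIF-2alpha, read 4.70, 4.28 and 4.56 RPKM in WT NS, 3.83, 4.50 and 4.03 in Act NS, 24, 19.8 and 27.6 in WT 5dw, with 14.3 and 23.3 in Act 5dw. The 5dw libraries were 14.3 RPKM or more and the NS libraries 4.70 or less, and the log2FC was 2.27 ± 0.18 in WT (adjusted p = 5.37e-06) and 2.02 ± 0.20 in Act (adjusted p = 3.58e-05). Hif1a, the subunit present in most cell types, gave 22.6, 37.5 and 28.1 RPKM in WT NS, 17.9, 30.8 and 35.9 in Act NS, 74.9, 81.7 and 78.1 in WT 5dw, with 86.4 and 80.0 in Act 5dw. No values overlapped, and the log2FC was 1.43 ± 0.24 in WT (adjusted p = 6.81e-04) and 1.60 ± 0.27 in Act (adjusted p = 9.98e-04). Egln1, the main oxygen sensor among the hydroxylases, was at 9.21 to 15.1 RPKM in NS and 9.67 to 13.2 in 5dw, and Egln3, known as a HIF target itself, at 2.45 to 6.34 RPKM in NS and 2.02 to 4.81 in 5dw. Neither passed in either genotype on the RPKM or the median-ratio scale, and Egln3 varied over 2-fold within every group.

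Of 11 other tested genes of the HIF machinery, among them partner subunits, the VHL complex and coactivators, none was higher and 6 were lower in WT, where 48.8% of all tested genes were lower, and 5 were lower in Act, where 36.5% were. Their median log2FC was -0.45 in WT and -0.24 in Act, near the all-gene medians of -0.40 and -0.31. After median-ratio scaling 3 were higher and 3 lower in each genotype, with medians of -0.05 and 0.08. Ep300, a coactivator of HIF and many other factors, had log2FCs of -1.07 and -0.91. Hif1an, the asparaginyl hydroxylase that blocks binding of coactivators, had -0.84 and -0.73. Egln2, the remaining prolyl hydroxylase, was also lower, with -0.74 (adjusted p = 0.00342) in WT and -0.77 (adjusted p = 0.00691) in Act, and it was singled out after its values were seen. On the median-ratio scale Egln2 passed in neither genotype (-0.31, adjusted p = 0.147, and -0.43, adjusted p = 0.0794).

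The mitochondrial genes of the set did not move together. Bnip3, a mitophagy receptor induced by HIF-1, read 7.86, 7.27 and 6.89 RPKM in WT NS, 7.42, 8.58 and 6.48 in Act NS, 16.8, 18.3 and 19.5 in WT 5dw, with 19.3 and 27.7 in Act 5dw. The tissues did not overlap, and the log2FC was 1.25 ± 0.15 in WT (adjusted p = 8.83e-05) and 1.57 ± 0.17 in Act (adjusted p = 6.41e-05). Its close relative Bnip3l was at 18 to 21.9 RPKM in NS and 14.6 to 19.5 in 5dw, with a log2FC of -0.37 ± 0.11 in WT (adjusted p = 0.0166) and -0.09 ± 0.13 in Act (adjusted p = 0.595). The sign for Bnip3l in WT turned to 0.08 (adjusted p = 0.622) after median-ratio scaling, and the call was lost without WT 5dw replicate 1 (adjusted p = 0.064) or 3 (adjusted p = 0.053). Of the 31-base sequences of Bnip3, 57.0% are shared with other annotated genes.

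Higd1a, a survival factor of the inner mitochondrial membrane, was at 4.82 to 10.6 RPKM in NS and 10.9 to 14.1 in 5dw, without overlap, and passed in Act mice only, at 0.35 ± 0.23 in WT (adjusted p = 0.205) and 0.87 ± 0.25 in Act (adjusted p = 0.0162). The interaction for Higd1a was 0.53 with an adjusted p of 0.999, so a genotype difference was not shown. It was a DEG in WT after median-ratio scaling (0.78, adjusted p = 0.00672), and its Act call was lost when either Act 5dw library was left out (adjusted p = 0.068 and 0.083). Ndufa4l2, known as a HIF-1 target that lowers the activity of complex I, was abundant in both tissues at 41.6 to 89.6 RPKM in NS and 55 to 96.2 in 5dw. Its log2FC was 0.01 ± 0.32 in WT (adjusted p = 0.971) and 0.26 ± 0.36 in Act (adjusted p = 0.569). Its groups overlapped widely in both genotypes.

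The other HIF targets gave both signs. Ddit4, the stress-induced inhibitor of mTORC1 also called REDD1, read 18, 9.20 and 11.1 RPKM in WT NS, 9.80, 14.2 and 10.5 in Act NS, 49.2, 50.0 and 61.8 in WT 5dw, with 42.3 and 60.3 in Act 5dw. All 5dw values were above all NS values, and the log2FC was 2.08 ± 0.24 in WT (adjusted p = 6.65e-05) and 2.10 ± 0.27 in Act (adjusted p = 1.86e-04). Ndrg1, a differentiation and stress gene, gave 38.3, 40.2 and 39.8 RPKM in WT NS, 33.7, 46.4 and 59.5 in Act NS, 96.2, 97.9 and 108 in WT 5dw, with 91.2 and 118 in Act 5dw. Again no values overlapped, and the log2FC was 1.34 ± 0.19 in WT (adjusted p = 2.11e-04) and 1.19 ± 0.21 in Act (adjusted p = 0.00124). Car9, which encodes the carbonic anhydrase that acidifies the cell surface and is often used as a hypoxia marker, read 0.172, 0.279 and 0.234 RPKM in WT NS, 0.236, 0.396 and 0.340 in Act NS, 0.689, 0.583 and 1.63 in WT 5dw, with 0.698 and 3.29 in Act 5dw. It exceeded 1 RPKM in 1 WT and 1 Act wound library, both numbered 3. Its WT call was lost when any 1 of the 6 NS libraries or WT 5dw replicate 1 was left out (adjusted p from 0.054 to 0.106). Ankrd37, a short ankyrin-repeat gene, stayed below 1 RPKM in every library and was not tested.

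Adm, which encodes the vasodilator peptide adrenomedullin, was the highest of these in NS and went the other way. Its values were 106, 124 and 78.1 RPKM in WT NS, 63.8, 164 and 119.5 in Act NS, 36.1, 47.5 and 48.2 in WT 5dw, with 40.2 and 46.9 in Act 5dw. Every 5dw value was below every NS value, and the log2FC was -1.20 ± 0.30 in WT (adjusted p = 0.00592) and -1.30 ± 0.34 in Act (adjusted p = 0.00915). After median-ratio scaling it was -0.75 (adjusted p = 0.0533) in WT and -0.95 (adjusted p = 0.0352) in Act, and without Act 5dw replicate 1 the Act value was -1.19 (adjusted p = 0.065). Kdm3a, a histone H3K9 demethylase induced by HIF-1, was at 5.49 to 7.65 RPKM in NS and 3.15 to 3.91 in 5dw and lower without overlap, with a log2FC of -0.92 ± 0.15 in WT (adjusted p = 4.68e-04) and -0.82 ± 0.16 in Act (adjusted p = 0.00237), and it remained a DEG on the median-ratio scale (-0.50 in both genotypes).

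**Figure D5:**
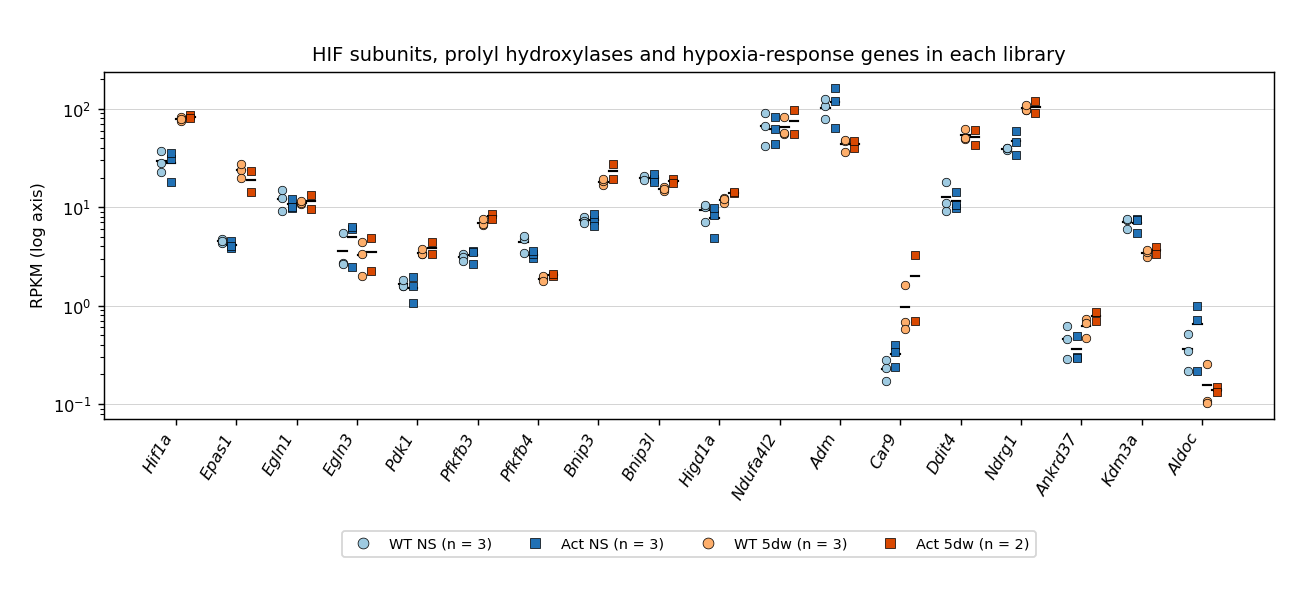
RPKM (log axis) of 18 genes of the HIF system and its targets, and of low glycolytic members, with 1 point per library (3 WT NS, 3 Act NS, 3 WT 5dw, 2 Act 5dw) and a black line at each group mean. Hif1a, Epas1, Bnip3, Ddit4 and Ndrg1 are above the NS points in all 5 5dw libraries, Adm and Kdm3a are below, and Ndufa4l2, Egln1 and Egln3 overlap.

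A further list of 32 HIF targets outside the 37 genes, all tested, had 13 higher and 4 lower in WT and 15 higher and 5 lower in Act, beside 9.45% higher and 48.8% lower in WT and 9.04% and 36.5% in Act over all tested genes. The median log2FC of this list was 0.18 in WT and 0.48 in Act. After median-ratio scaling 16 were higher and 2 lower in each genotype. Over all tested genes 22.4% were then higher and 22.2% lower in WT, and 19.9% and 20.8% in Act. Nos2, the inducible nitric oxide synthase, reached 1 RPKM in 5dw libraries only, so it had to be higher to be tested, and without it 12 of 31 were higher in WT and 14 in Act. It read 0.0564 to 0.168 RPKM in NS and 12.9 to 56.7 in 5dw, with log2FCs of 5.33 and 5.50. Plod2, a collagen lysyl hydroxylase, was at 6.15 to 21.7 RPKM in NS and 78.6 to 100.9 in 5dw, with log2FCs of 2.32 and 3.03. Of the genes called in both genotypes, Rora and Gpd1l had the lowest mean log2FC, -1.10 and -1.04 for Rora, a nuclear receptor, and -1.0 and -1.0 for Gpd1l, a glycerol-3-phosphate dehydrogenase relative.

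The routes that use the intermediates and the product of glycolysis were read from further lists. Of 28 genes of pyruvate oxidation and the TCA cycle, 1 was higher and 13 lower in WT, and 1 higher and 6 lower in Act, with medians of -0.37 and -0.19. Of all tested genes 48.8% were lower in WT and 36.5% in Act, so the share that was lower in this list was no higher than over all genes in either genotype. Pdp2 reached 1 RPKM in NS libraries only and had to be lower to be tested, and without it 12 of 27 were lower in WT. After median-ratio scaling 9 were higher and 3 lower in WT and 6 and 2 in Act, with medians of 0.08 and 0.16, so the direction of this list depends on the scale. The pyruvate dehydrogenase kinases, which switch off pyruvate oxidation, split: Pdk3 had log2FCs of 0.77 and 0.70 and Pdk4, the fasting-induced form, -1.70 and -1.76, from 4.53 to 6.31 RPKM in NS to 1.10 to 1.67 in 5dw. Pdp1, the phosphatase that reverses these kinases, was lower, at -0.73 and -0.72.

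Of the 8 genes of the pentose phosphate pathway, which makes NADPH and ribose, 4 were lower in WT, 3 were lower in Act and none was higher, shares of lower genes close to those over all tested genes. On the median-ratio scale 3 were higher and 2 lower in each genotype. G6pdx, the entry enzyme, was at 10.7 to 21.5 RPKM in NS and 5.98 to 8.19 in 5dw, with log2FCs of -1.08 and -0.97. Rpia, ribose-5-phosphate isomerase, had -1.14 and -0.96. Among 9 tested isozymes and side enzymes of glycolysis outside the set, 1 was higher and 3 lower in WT and 1 was lower in Act. Over all tested genes 9.45% were higher and 48.8% lower in WT, and 36.5% were lower in Act. After median-ratio scaling the counts were 3 and 2 in WT (22.4% and 22.2%) and 3 and 1 in Act (19.9% and 20.8%). Pfkfb2 and Tigar reached 1 RPKM in NS libraries only. Without these genes 1 of 7 was higher and 1 lower in WT and none passed in Act. Of 5 other transporters of glucose and lactate, 1 was higher in each genotype, and the 2 lower ones were Slc16a7 and Slc2a12, whose direction the filter fixed.

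Genotype left the 37 genes without a DEG in either tissue. In Act NS against WT NS none of the 35 tested genes passed (0.0167% of all tested genes did), and 1 had an unadjusted p under 0.05 in the limma fit, against 6.88% of all tested genes. This was Pfkfb4, at 4.74, 3.43 and 5.04 RPKM in WT NS and 3.04, 3.31 and 3.55 in Act NS, a log2FC of -0.35 ± 0.14 (adjusted p = 0.688), and its groups overlapped. In Act 5dw against WT 5dw none passed (0.0334% of all tested genes did), and 0 genes of the set had an unadjusted p under 0.05, against 3.22%. The interaction of wounding and genotype gave no member and 0.0% of tested genes at the adjusted threshold, and 1 member, again Pfkfb4 (0.46), at an unadjusted p under 0.05, against 3.34%. The median genotype difference of the 35 genes was -0.03 in NS and 0.04 in 5dw, against -0.11 and -0.04 over all tested genes. After median-ratio scaling it was 0.10 in NS and 0.08 in 5dw, against 0.02 and -0.004. Genes above 0 went from 13 to 28 in NS and from 20 to 25 in 5dw, so the sign in NS depends on the scale. No other tool was run on this comparison.

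Act 5dw has 2 libraries, and differences were estimated with standard errors of 0.13 to 0.44 on the log2 scale there. In NS no member had values in Act that were all above or all below those in WT, while 0.993% of tested genes were fully higher and 7.98% fully lower. In 5dw, Pfkfb3, Pfkfb4, Bnip3l and Higd1a were higher in both Act libraries than in all 3 WT libraries (7.87% of tested genes) and Slc16a1 was lower (15.2%). Slc16a1 read 28.4, 37.7 and 34.4 RPKM in WT 5dw but 26.3 and 25.9 in Act 5dw (log2FC -0.34 ± 0.20). Bnip3l read 14.6, 16 and 15.2 in WT 5dw but 19.5 and 17.5 in Act 5dw (log2FC 0.27 ± 0.13). Both missed the threshold, with an adjusted p of 1 for each.

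Libraries of 1 group differed in their glycolytic genes to unequal degrees. Act 5dw replicate 3 was above replicate 1 in 13 of the 15 enzymes, with a median log2 difference of 0.61, and in 29 of the 37 genes, with a median of 0.50. Over all tested genes the median was -0.02 and 46.8% were higher. Slc16a3 and Car9 showed the widest gaps, 5.07 against 16.8 RPKM and 0.698 against 3.29. Hif1a ran the other way, 86.4 against 80.0, as did Slc16a1, Pfkfb3 and Ldhb.

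WT 5dw replicate 3 was above replicate 2 in 14 of 15 enzymes, with a median log2 difference of 0.24, when 51.1% of all tested genes were. It was above replicate 1 in 12 of 15 enzymes, by a median of 0.10, and in 32 of the 37 genes, when 43.7% of all tested genes were. This was also the WT 5dw library with the most keratinocyte RNA. Act NS replicate 1 was below replicates 2 and 3 in 14 of 15 enzymes each, with median differences of 0.32 and 0.40. There 76.2% and 75.3% of all tested genes were also lower in replicate 1, by medians of 0.21 and 0.23. In WT NS the gaps were smaller, with replicate 2 above replicate 1 in 6 of 15 enzymes (median -0.06, and 49.2% of all tested genes) and replicate 3 above replicate 2 in 14 of 15 (median 0.15, and 62.3%). The remaining pairs, among them WT 5dw replicates 1 and 2 with 3 of 15 higher in replicate 2, had median differences of -0.16 to 0.16.

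Purity and handling markers were read beside these results. Pdgfra, the gene of the sorting marker, was at 49.8 to 65.3 RPKM in NS and 29.6 to 37.3 in 5dw, and Ptprc, which encodes CD45, was at 0.0498 RPKM or less throughout. The 12 fibroblast markers went both ways, with 4 higher and 5 lower in WT, 4 and 4 in Act, and medians of -0.12 and -0.38. Their summed RPKM was 13585 to 19301 in NS and 24203 to 27477 in 5dw, a sum carried largely by collagens such as Col1a1 (log2FC 1.51 and 1.5) and Col3a1 (1.66 and 1.83). The sum of 14 keratinocyte markers was 1091 to 2032 RPKM in WT NS, 1158 to 4253 in Act NS, 164, 332 and 1457 in WT 5dw but 373 and 445 in Act 5dw, and 10 of the 14 were lower in 5dw in each genotype, or 9 of 13 without Krt15, which reached 1 RPKM in NS libraries only and had to be lower to be tested. Krt6a, a keratin of wound-edge keratinocytes, was the 1 that was higher in WT, at 6.50 to 11.1 RPKM in WT NS and 26.9, 61.5 and 265 in WT 5dw, and in Act it read 22 to 70.1 in NS, with 66.7 and 82.9 in 5dw. The keratinocyte sum moved with wounding against the direction of the glycolytic enzymes, and its part in the lower genes such as Ldhb, Adm and Kdm3a was not tested. In bulk RNA, fewer cells of a kind and less RNA per cell cannot be told apart.

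Neutrophil markers summed to 0.353 to 1.22 RPKM in NS and 3.10 to 21.7 in 5dw, with 6 of 8 at or below 1 RPKM everywhere, and macrophage markers to 12.8 to 20.5 in NS and 22.1 to 29.1 in 5dw, with 5 of 9 at or below 1. Pan-immune markers summed to 13.8 to 17.2 in NS and 10.3 to 13.7 in 5dw, with 9 of 10 at or below 1. Endothelial markers summed to 22.9 to 40.3 RPKM in NS and 22.3 to 29.3 in 5dw, and pericyte markers to 15.8 to 24.9 and 12.6 to 20.5. Schwann cell markers summed to 4.8 to 10.1 RPKM in NS and 0.705 to 0.969 in 5dw, and the 3 tested ones reached 1 RPKM in NS libraries only, so the filter fixed their direction. Red blood cell markers summed to 6.01 to 37.8 in NS and 0.724 to 3.55 in 5dw. Adipocyte markers summed to 68.3 to 128 and 45.9 to 69.8, and skeletal muscle markers to 2.96 to 6.34 and 1.89 to 2.60. The sums of these 4 lists moved in the direction of the lower genes of the set, and those of the neutrophil and macrophage lists in the direction of the higher genes. Of 15 genes known to respond to tissue dissociation, 1 was higher in 5dw in each genotype, Ier3 (1.85 and 1.94), and 5 were lower in WT and 2 in Act, the 2 being Hspa1a and Hspa1b. Their part in the results of the set was not tested.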

How the data were processed

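The authors sorted fibroblasts, sequenced poly-A RNA as 100 bp reads, aligned them to GRCm38 in CLC Genomics Workbench, counted reads on genes and deposited RPKM values for 11 libraries. They tested DEGs with the edgeR exact test, which needs counts and was not run here. The mapped reads per library were recovered as the number that makes RPKM times gene length whole (tolerance 0.03, 78.2% to 79.5% of genes under 200 reads), too few to rebuild counts. Each replicate is a pool of 3 animals, so p-values measure the spread between pools.

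The 37 genes and all further lists were chosen with earlier results of these data known. The 11979 genes that reached 1 RPKM in 2 or more libraries were fitted as log2(RPKM + 0.5) with limma 3.58.1 (limma-trend, R 4.3.3), 1 mean per group over 11 libraries, 7 residual degrees of freedom (median prior 3.89), with Benjamini-Hochberg adjustment over all tested genes. Log2 fold changes are on this scale and understate those of low genes. Errors beside log2FCs are standard errors of this fit. Per-library values were given, by rule, for the 15 members with the largest mean log2FC of both genotypes in size among those that passed in both without overlap between tissues, and further lists by up to 2 genes with the highest and 2 with the lowest mean log2FC among those that passed in both. Ratios of related genes used an exact permutation test (scipy 1.17.1).

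Libraries of the same number were paired by their deviations from group means: the correlations were 0.19, 0.12 and 0.11 between WT NS and WT 5dw and 0.55, 0.42 and 0.33 between WT NS and Act NS. Between Act NS and WT 5dw they were 0.22, 0.20 and 0.26. WT NS and Act NS libraries of different numbers gave -0.47 to 0.19, so those of the same number varied together in part. The main fit leaves this out, and the replicate block takes it in. Act 5dw has only 2 numbers, and its pairs gave 0.02 and 0.14 with Act NS and -0.08 and 0.19 with WT 5dw. No 2 libraries of a group were alike enough to be the same. Alternatives were other pseudocounts, filters and scalings, the replicate block, a fit of only the compared groups, and leaving out each library. Gene positions and shared 31-base sequences came from GENCODE M21.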

Additional observations from a re-analysis of the deposited data

How the results depend on the processing

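Of the counts of members called, those higher in 5dw stayed within 1.5 times of 18 under every alternative in WT. In Act the lower count moved from 5 to 3 under median-ratio scaling and to 3 under quantile normalization, and in WT from 7 to 4 under median-ratio scaling. Leaving out 1 library at a time gave 16 to 19 higher and 6 to 7 lower in WT, and 11 (without Act 5dw replicate 3) to 19 higher and 2 (without Act 5dw replicate 1) to 6 lower in Act. The genotype and interaction counts stayed at 0. The log2FC of Bnip3l in WT turned from -0.37 to 0.0770 under median-ratio scaling, the only sign that turned among values called on either side, and the cause was not tested. In the comparisons of 5dw with NS, values called in neither turned sign too. These were 7 values of 5 genes (Pfkm, Eno2, Egln1, Egln3 and Bnip3l) under median-ratio scaling. Under quantile normalization they were 7 of 5, and 14 of 6 when 1 library was left out. Genotype differences are not in this tally. With the replicate block, 19 members were higher and 7 lower in WT and 19 and 5 in Act, and besides Hk2 in WT and Ldha in Act it changed no call. Some calls were gained without 1 library: Aldoa, Gpi1 and Ldha in Act without Act 5dw replicate 1, Hk1 in Act without Act 5dw replicate 3, Hk2 in WT without WT NS replicate 2, Slc2a1 in WT without Act NS replicate 1, and Gpi1 in WT without either Act 5dw library. Fitting only the compared groups added Aldoa, Gpi1 and Slc2a1 in WT and lost Gapdh and Slc16a1 in Act. A pseudocount of 1 lost Car9 in WT, and leaving out the filter lost Car9 and Ldha in WT.

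The Hk1 to Hk2 ratio differed by -1.0 to -0.72 when 1 library was left out, with adjusted p-values up to 0.096 in the exact permutation test, and the Hif1a to Epas1 ratio by -0.84 to -0.58, with values up to 0.066. Fewer arrangements are possible with 1 library fewer, and the other 8 ratios that passed kept their calls. Under median-ratio scaling, chosen for the ratios after seeing the data, as were the counts without Car9 or without list genes that reached 1 RPKM in only 1 tissue, no ratio changed its call. Act 5dw has 2 libraries of pooled animals, which limits the genotype comparisons, and log2FCs of genes near the 0.5 pseudocount, such as Car9, depend on it.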
